A study of Mus musculus with 16 samples.

Results

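The liver makes most complement proteins and acute-phase proteins of the blood, and the genes described here are 37 of these and their signalling genes, chosen by symbol: complement components and inhibitors, lectin-pathway genes, acute-phase proteins, Stat3, Il6ra and Il1rn. Of these, 34 had at least 1 probe among the 16593 genes with a symbol in the tables used, by 46 probes in all. C3, Cfd and Cfp had no probe in the tables used and were not analysed here. Expression was read with Illumina MouseRef-8 v2.0 arrays in livers of male FVB/NJ mice at 4 weeks of age, with 7 arrays labelled Trim28MommeD9/+ and 9 labelled Trim28+/+. Trim28 is a corepressor that carries histone-modifying enzymes to silenced chromatin, and the MommeD9 allele, induced by N-ethyl-N-nitrosourea, disrupts a splice site of the gene. Both groups come from an FVB/NJ line that carries a GFP transgene expressed in red blood cells, and that GFP signal was also used to class mice as mutant or wild type. The study describes 4 mice per genotype and technical replicates, and which arrays share a mouse is not given in the sources used here. Arrays were therefore the unit of every test, and p-values are too small where arrays share a mouse.

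Complement is a cascade of serum proteases. The classical and lectin pathways cleave C4 and C2, the alternative pathway uses factor B, all of them cleave C3, and the terminal components assemble into a pore in the target membrane. Acute-phase proteins such as serum amyloid A rise in blood during inflammation, when interleukin-6 acts on hepatocytes through its receptor and the transcription factor Stat3, together with interleukin-1, NF-kB and C/EBP factors. FVB/NJ mice are known to carry an Hc allele that gives no C5 protein, so the array reads the transcript of this gene only.

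Values below are background-corrected, quantile-normalized log2 intensities, and a difference is the Trim28MommeD9/+ mean minus the Trim28+/+ mean on that scale. A gene passed the test when limma's p-value, adjusted over all 7302 genes tested, was under 0.05. The constant that the authors subtracted from each array parts the arrays into a low-background set of 37.6 to 42.7 and a high-background set of 48.8 to 56.2. The low set holds the 7 Trim28MommeD9/+ arrays and Trim28+/+ replicate 1, and the high set holds the other Trim28+/+ arrays. Within the low set, each difference rests on Trim28+/+ replicate 1 alone, and beyond that array background and genotype cannot be told apart. Trim28 itself lay between 8.53 and 8.76 on the Trim28MommeD9/+ arrays and between 8.63 and 9.39 on the Trim28+/+ arrays, a difference of -0.44 (adjusted p = 0.00277, limma).

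Of the 34 genes with a probe, 31 passed the filter on dim probes and were tested. Orm3, an orosomucoid gene, and Il1rn, the interleukin-1 receptor antagonist, were detected on 0 of the 16 arrays, and Saa2 on 1 of 9 Trim28+/+ arrays and 0 of 7 Trim28MommeD9/+ arrays. Among the 31 tested, 4 were higher in Trim28MommeD9/+ livers (C2, C4b, Masp2 and Saa3), which is 12.9%, against a background of 10.4% of all genes tested. Another 5 were lower (Cfb, C8a, Cp, Lbp and Stat3), which is 16.1% against a background of 11.4%. In either direction 9 of the 31 passed, beside 21.8% of all genes, and 22 did not pass. The median difference of the 31 was 0.06, beside 0.05 over all genes, with 18 above 0 and 13 below. Their probes were bright, and 21 of the 31 lay in the brightest of 4 equal parts of all genes, where 10.9% were higher and 10.9% lower and where 3 of the 21 were higher and 3 lower. In 0 of the 31 genes did the genotypes separate without overlap, beside 2.40% of all genes. With each array scaled to the median of all probes in place of quantile normalization, the median difference of all genes moved to -0.19, 0 of the 31 were higher and 12 lower (beside 0.479% and 34.6% of all genes), and C4b and Masp2 turned to -0.01 and -0.06. With that median subtracted, the values of C2, C4b, Masp2 and Saa3 were 0.25, 0.18, 0.13 and 0.23. This subtraction largely takes back the change of scale, and these values were not tested. With the authors' scaled values, 374 genes were higher and 1076 lower, of which 3 and 4 were among the 31. With presumptive technical pairs, arrays of a genotype presumed from their correlation to share a mouse, as a random block, 1 of the 31 was higher (C2) and 1 lower (Cfb), beside 2.41% and 4.26% of all genes, and with the background sets as a block 0 were called in either direction, beside 0.0274% higher and 0.0137% lower (3 genes). Pairs cannot join all arrays that share a mouse if 9 Trim28+/+ arrays come from 4 mice. The p-values with the presumptive pairs may therefore still be too small. Without Trim28+/+ replicate 1, 4 of the 31 were higher and 7 lower, beside 13.6% and 13.5%. With every probe tested, 7 of the 40 probes of these genes were higher and 5 lower, beside 1069 and 1177 of all 9688 probes, or 23.2% in either direction.

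**Figure D1:**
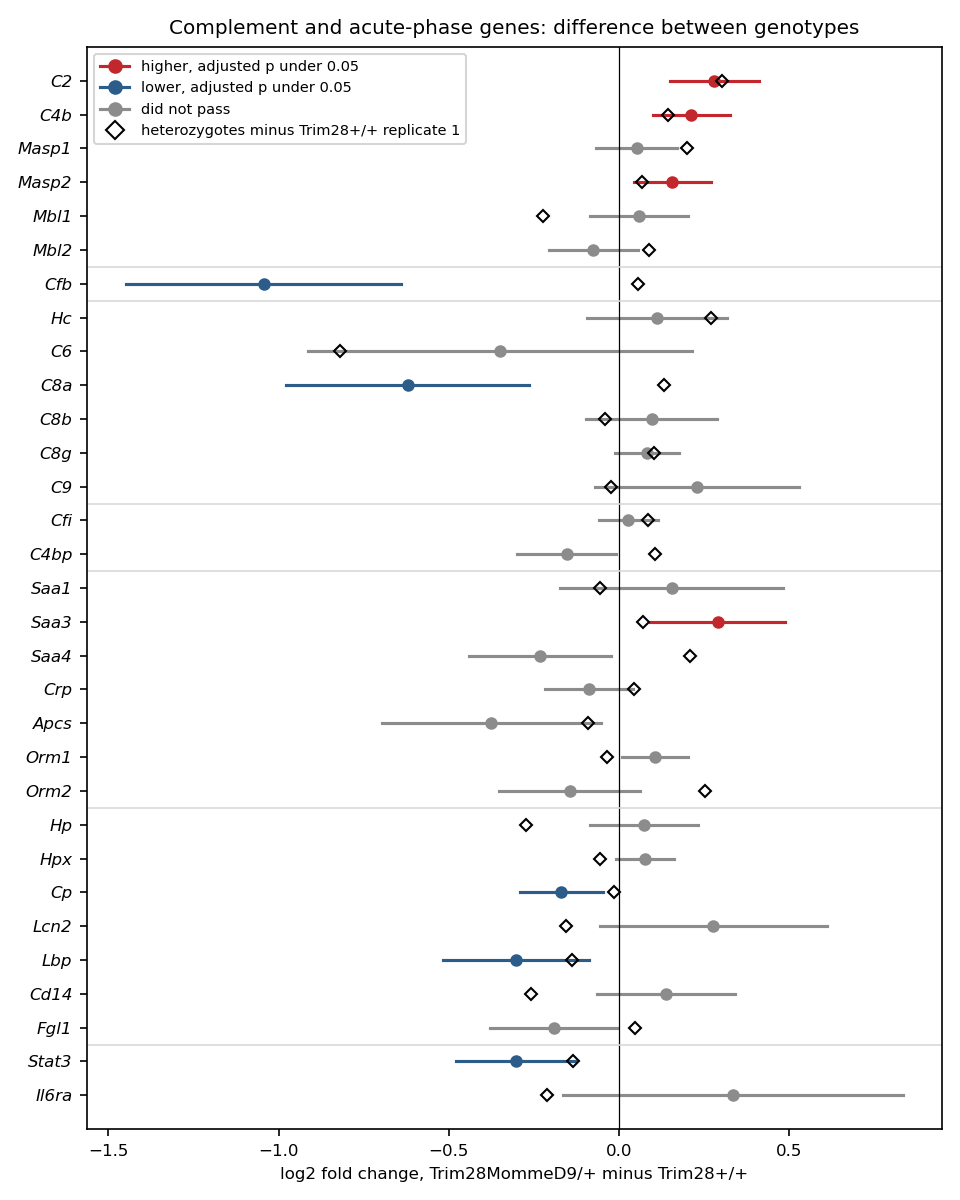
Differences between genotypes for the 31 genes tested, as the log2 fold change (x axis, Trim28MommeD9/+ minus Trim28+/+) with its 95% confidence interval, grouped by role from the classical and lectin pathways at the top to signalling at the bottom. Red marks the 4 genes that were higher and blue the 5 that were lower, and open diamonds give the Trim28MommeD9/+ mean minus Trim28+/+ replicate 1 alone, which for Cfb and C8a lies to the right of 0.

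Of the 6 classical and lectin pathway genes, 3 were higher, 0 lower and 3 did not pass, beside 10.4% of all genes higher and 11.4% lower. C2, the protease that pairs with C4 fragments to cleave C3, read 10.57 at the lowest, 10.67 at the median and 10.96 at the highest on the Trim28MommeD9/+ arrays, and 10.34, 10.47 and 10.58 on the Trim28+/+ arrays. On 6 of 7 Trim28MommeD9/+ arrays it lay above every Trim28+/+ array, so the groups overlapped at a single Trim28MommeD9/+ array. The difference was 0.28 (95% interval 0.15 to 0.41, adjusted p = 0.00468, limma), a 1.22-fold higher level. C2 was the only one of the 4 higher genes for which Trim28+/+ replicate 1, at 10.44, lay outside the Trim28MommeD9/+ range. Over all genes called higher, that array lay inside the range for 46.0%. Against it alone, the C2 difference was 0.30. C2 kept its call with each of the 16 arrays left out in turn, with adjusted p-values between 0.0043 and 0.0135. It also kept the call with the presumptive technical pairs (adjusted p = 0.0292). The call was lost with each array scaled to the median of all probes, where C2 differed by 0.06 (adjusted p = 0.599, limma).

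C4b, which encodes the C4 protein cleaved by both pathways, read 11.15, 11.32 and 11.41 on the Trim28MommeD9/+ arrays and 10.88, 11.08 and 11.19 on the Trim28+/+ arrays. It lay above every Trim28+/+ array on 5 of 7 Trim28MommeD9/+ arrays, and the remaining arrays mixed. Its difference was 0.21 (0.10 to 0.33, adjusted p = 0.0103) and 0.14 against Trim28+/+ replicate 1 alone. With the presumptive pairs the adjusted p was 0.0881. C4a is a near-identical neighbour of C4b, and the probe was not checked for cross-hybridization because its sequence was not used here.

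Masp2, the protease that mannose-binding lectins activate, read 11.33, 11.49 and 11.58 against 11.10, 11.37 and 11.42. Again 5 of 7 Trim28MommeD9/+ arrays lay above all Trim28+/+ arrays. Its difference was 0.16 (0.04 to 0.27, adjusted p = 0.0445, or 0.177 with the presumptive pairs). The other 2 Masp2 probes differed in the same direction, by 0.38 (adjusted p = 0.0286 over all probes) and 0.29 (adjusted p = 0.00353), while against Trim28+/+ replicate 1 alone the 3 probes gave 0.07, -0.04 and 0.08. The call was lost when any of 10 of the 16 arrays was left out (Trim28MommeD9/+ replicates 1, 2, 4, 5, 6 and 7 and Trim28+/+ replicates 5, 7, 8 and 9), and over all 16 omissions the difference lay between 0.13 and 0.18. Masp1, Mbl1 and Mbl2, another lectin-pathway protease and the mannose-binding lectins themselves, differed by 0.05, 0.06 and -0.07 and did not pass.

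Factor B was the alternative-pathway gene that could be tested, and it had the largest difference of the 31 genes. Cfb, which encodes the protease of the alternative-pathway C3 convertase, read 8.33, 8.69 and 8.95 on the Trim28MommeD9/+ arrays and 8.58, 9.61 and 10.41 on the Trim28+/+ arrays. The array at 8.58 was Trim28+/+ replicate 1, and the other 8 Trim28+/+ arrays, from 9.45 to 10.41, lay above every Trim28MommeD9/+ array. Replicate 1 lay inside the Trim28MommeD9/+ range for all 5 lower genes, beside 70.9% of all genes called lower. The Cfb difference was -1.04 (-1.45 to -0.64, adjusted p = 0.00183, limma), a 2.06-fold lower level. Cfb kept its call with each array left out and with the presumptive pairs (adjusted p = 0.0321). Without Trim28+/+ replicate 1 the difference was -1.18, whereas against that array alone it was 0.06. Cfb and C2 are neighbours on chromosome 17 (GRCm38.p6, 34856374-34862514 and 34862602-34882100), with 87 bases between them. Their calls had opposite signs, and the difference between them was not tested.

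**Figure D2:**
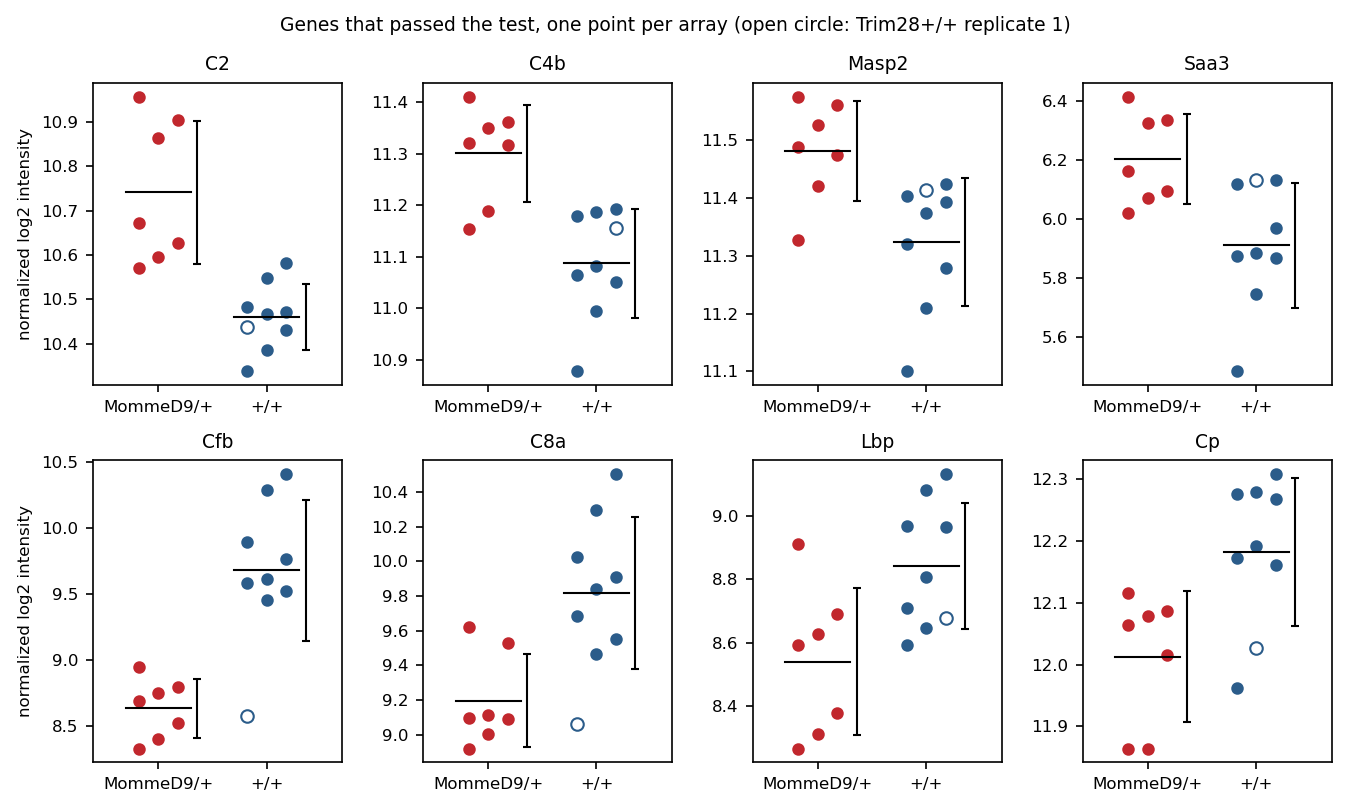
Normalized log2 intensity (y axis) of 8 of the 9 genes that passed the test, one point per array for 7 Trim28MommeD9/+ arrays (MommeD9/+) and 9 Trim28+/+ arrays (+/+), with the mean as a line and the SD as a bar. The open circle is Trim28+/+ replicate 1, which lies among the Trim28MommeD9/+ arrays for Cfb at 8.58 and for C8a at 9.06. It lay inside their range for 70.9% of all genes called lower.

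In the terminal pathway 1 of 6 genes was lower, 0 were higher and 5 did not pass, beside 11.4% of all genes lower and 10.4% higher. C8a and C8b encode the alpha and beta chains of C8, the component that inserts into the membrane before C9 joins, and C8g encodes its gamma chain. C8a and C8b are also neighbours, with 11130 bases between them on chromosome 4, and their upstream sequences are shown because C8a passed the test and C8b did not (the difference between them was not tested). The 250 bases before an annotated start of each gene (RefSeq, GRCm38.p6, chr4:104876399-104876648 on the minus strand for C8a and chr4:104766067-104766316 on the plus strand for C8b) are given 5′ to 3′, with capitals for a match to the STAT-type motif TTCNNNGAA. Of the C8a window, 89 bases lie inside the annotated gene, which has another start further upstream.
C8a: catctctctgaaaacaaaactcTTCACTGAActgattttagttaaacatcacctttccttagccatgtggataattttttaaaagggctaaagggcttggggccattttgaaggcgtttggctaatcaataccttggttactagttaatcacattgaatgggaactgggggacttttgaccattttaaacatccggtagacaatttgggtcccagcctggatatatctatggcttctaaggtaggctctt
C8b: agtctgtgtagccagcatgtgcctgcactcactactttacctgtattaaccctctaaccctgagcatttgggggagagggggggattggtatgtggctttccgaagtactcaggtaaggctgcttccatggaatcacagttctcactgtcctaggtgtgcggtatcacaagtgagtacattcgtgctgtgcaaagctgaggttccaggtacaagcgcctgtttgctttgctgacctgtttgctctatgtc

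C8a read 8.92, 9.10 and 9.62 on the Trim28MommeD9/+ arrays and 9.06, 9.84 and 10.50 on the Trim28+/+ arrays. The lowest Trim28+/+ value was again that of replicate 1, with the other Trim28+/+ arrays at 9.47 or above, so that the groups still overlapped without it. The difference was -0.62 (-0.98 to -0.26, adjusted p = 0.0152), -0.72 without Trim28+/+ replicate 1 (adjusted p = 0.00202) and 0.13 against that array alone. It passed with each array left out, but not with the presumptive pairs (adjusted p = 0.101). C8b differed by 0.10 (-0.10 to 0.29) and C8g by 0.08 (-0.01 to 0.18), and neither passed. The motif search found TTCACTGAA in the C8a window and no match in the C8b window on either strand.

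Hc, C6 and C9, the remaining terminal components, did not pass. Hc differed by 0.11 (-0.09 to 0.32). C9, which forms the ring of the pore, gave different signs by probe: 0.23 (adjusted p = 0.245 over all probes) for the brightest probe and -0.49 (adjusted p = 0.0742) for the second, while another probe was detected on 0 of the 16 arrays. C6 differed by -0.35 (-0.91 to 0.22) with the brighter of its probes and by -0.32 with the other. Among the inhibitors, Cfi, the protease that degrades C3b and C4b, differed by 0.03 (-0.06 to 0.11), and C4bp, its cofactor for C4b, by -0.15 (adjusted p = 0.116). Without Trim28+/+ replicate 1, C4bp passed at -0.19 (adjusted p = 0.0387).

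The serum amyloid A, pentraxin and orosomucoid genes hold the standard markers of the acute phase. Of the 7 tested, 1 was higher, 0 lower and 6 did not pass, beside 10.4% of all genes higher and 11.4% lower. Saa3, an inducible serum amyloid A that macrophages also make, read 6.02, 6.16 and 6.41 on the Trim28MommeD9/+ arrays against 5.48, 5.88 and 6.13 on the Trim28+/+ arrays. On 4 of 7 Trim28MommeD9/+ arrays it lay above every Trim28+/+ array. Its difference was 0.29 (0.09 to 0.49, adjusted p = 0.0353, or 0.164 with the presumptive pairs) and 0.07 against Trim28+/+ replicate 1 alone, and the call was lost when any of 6 arrays was left out (Trim28MommeD9/+ replicates 2, 3 and 6 and Trim28+/+ replicates 4, 6 and 9), with adjusted p-values up to 0.0747. Over all 16 omissions its difference lay between 0.24 and 0.32. Kupffer cells are the resident macrophages of the liver. Of 8 of their markers tested, 5 (Clec4f, Vsig4, C1qa, C1qb and C1qc) were higher as Saa3 was, beside 10.4% of all genes. Of the 8, 0 were lower, beside 11.4% of all genes. The other 3, Adgre1, Timd4 and Marco, differed by -0.30 (adjusted p = 0.0721), -0.13 (adjusted p = 0.380) and 0.13 (adjusted p = 0.485), and a second Adgre1 probe differed by -0.64 and passed over all probes. With the presumptive pairs 2 of the 8 (Vsig4 and C1qc) kept their calls, beside 2.41% of all genes higher. With each array scaled to the median of all probes 0 were higher and 1 (Adgre1) lower, beside 0.479% and 34.6% of all genes. On the scale used here, the summed linear intensity of the 8 was 2019 to 2503 on the Trim28MommeD9/+ arrays and 1512 to 2026 on the Trim28+/+ arrays, with 1839 on Trim28+/+ replicate 1. That sum rests mainly on the brighter Vsig4, Clec4f, C1qb and C1qc, which were called higher, and little on the dim Adgre1, Timd4 and Marco. The part of the 8 markers in the result was not tested. In whole liver, more cells of a type and more RNA per cell cannot be told apart.

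Saa1 and Saa2 encode the main inducible serum amyloid A proteins of mouse serum, and both were near or below the limit of detection. Saa1 was detected on 3 of 7 Trim28MommeD9/+ arrays and 1 of 9 Trim28+/+ arrays, and read 4.59, 4.68 and 5.66 against 4.68, 4.82 and 5.19. Its values on the Trim28MommeD9/+ arrays lay on both sides of those of Trim28+/+, with 3 arrays above and 4 below all of them, and most of these values were under the limit of detection. The difference was 0.16 (-0.17 to 0.48, adjusted p = 0.497). Without the Trim28MommeD9/+ arrays Saa1 would not have passed the filter on dim probes. Saa2 read 4.57, 4.68 and 5.05 against 4.54, 4.77 and 5.27, overlapped throughout and was not tested. The windows of 250 bases before an annotated start of Saa1, Saa2 and Saa4 (RefSeq, GRCm38.p6, chr7:46742981-46743230 minus, chr7:46751583-46751832 plus and chr7:46732604-46732853 minus) are shown with matches to the C/EBP-type motif TTGCNNAA on either strand in capitals, because this motif occurred in a larger share of the windows of these genes than of all genes. Of the Saa1 window, 201 bases lie inside the annotated gene, which has another start further upstream, while the Saa2 and Saa4 windows end at the gene.
Saa1: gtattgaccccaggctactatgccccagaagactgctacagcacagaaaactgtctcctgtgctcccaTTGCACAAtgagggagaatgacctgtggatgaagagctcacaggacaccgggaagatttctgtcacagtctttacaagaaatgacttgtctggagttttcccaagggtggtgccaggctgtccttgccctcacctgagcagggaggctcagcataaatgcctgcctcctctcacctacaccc
Saa2: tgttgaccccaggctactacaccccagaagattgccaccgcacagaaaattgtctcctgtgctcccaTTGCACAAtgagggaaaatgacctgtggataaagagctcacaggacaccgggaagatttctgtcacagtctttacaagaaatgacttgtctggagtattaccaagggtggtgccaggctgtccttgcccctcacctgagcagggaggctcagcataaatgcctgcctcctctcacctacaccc
Saa4: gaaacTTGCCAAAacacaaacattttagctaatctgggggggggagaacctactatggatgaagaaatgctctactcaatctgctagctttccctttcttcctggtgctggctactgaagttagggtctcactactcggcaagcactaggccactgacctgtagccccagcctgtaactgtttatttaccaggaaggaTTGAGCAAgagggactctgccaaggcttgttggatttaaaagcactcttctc

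The Saa1 and Saa2 windows were identical at 238 of 250 aligned bases (95.2%) and hold the same match, TTGCACAA. Their transcripts are near-identical too, so that a probe for one could read the other. Windows of this length were given for 27 of the 37 genes, as 31 windows. TTGCNNAA occurred in 11 of these windows (35.5%), those of C3, C9, Cp, Hpx, Lcn2, Orm2, Orm3, Saa1, Saa2, Saa3 and Saa4, and in 9.56% of the 32851 windows of all genes. The STAT-type TTCNNNGAA occurred in 3 of them (9.68%), those of Apcs, C8a and Masp2, beside 7.02% of all, and the NF-kB-type motif (GGG and CC with 5 bases of any kind between them) in 12 (38.7%) beside 45.8%. All were searched on both strands, and matches of different motifs did not overlap in these windows.

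Crp, a pentraxin that is only a minor acute-phase protein in mice, read 12.54, 12.61 and 12.65 on the Trim28MommeD9/+ arrays and 12.50, 12.72 and 12.99 on the Trim28+/+ arrays, so that the former fell inside the latter. It differed by -0.09 (-0.22 to 0.04, adjusted p = 0.322). Apcs, which encodes serum amyloid P, the main pentraxin of the acute phase in mice, differed by -0.37 (-0.69 to -0.05, adjusted p = 0.0848), with 3 of 7 Trim28MommeD9/+ arrays below every Trim28+/+ array, and passed at -0.46 without Trim28MommeD9/+ replicate 3 (adjusted p = 0.0349). Saa4, the constitutive serum amyloid A, differed by -0.23 (adjusted p = 0.101) and passed at -0.29 without Trim28+/+ replicate 1 (adjusted p = 0.0226). Orm1, the major orosomucoid, read 13.70, 13.78 and 13.85 against 13.56, 13.61 and 13.81. On 3 of 7 Trim28MommeD9/+ arrays it lay above every Trim28+/+ array, and the difference was 0.11 (0.01 to 0.20, adjusted p = 0.107). Orm2 differed by -0.14 (adjusted p = 0.299), and the orosomucoid genes are similar enough in sequence that their probes may share signal.

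Of the 7 genes that bind haem, metals or lipopolysaccharide, together with Fgl1, 2 were lower, 0 higher and 5 did not pass. Beside this, 11.4% of all genes were lower and 10.4% higher. Lbp, which passes lipopolysaccharide to its receptor Cd14, read 8.27, 8.59 and 8.91 on the Trim28MommeD9/+ arrays and 8.59, 8.81 and 9.13 on the Trim28+/+ arrays. On 3 of 7 Trim28MommeD9/+ arrays it lay below every Trim28+/+ array. Its difference was -0.30 (-0.52 to -0.09, adjusted p = 0.0422, or 0.108 with the presumptive pairs), with -0.14 against Trim28+/+ replicate 1 alone. Cp, the copper carrier ceruloplasmin, read 11.86, 12.06 and 12.12 against 11.96, 12.19 and 12.31, with 2 of 7 Trim28MommeD9/+ arrays below all Trim28+/+ arrays. It differed by -0.17 (-0.29 to -0.05, adjusted p = 0.0445, or 0.188 with the presumptive pairs) and by -0.01 against Trim28+/+ replicate 1 alone. The Lbp call was lost when any of 10 arrays was left out (Trim28MommeD9/+ replicates 1, 2, 4, 5 and 6 and Trim28+/+ replicates 2, 5, 6, 8 and 9), with adjusted p-values up to 0.0944 and differences over all 16 omissions from -0.36 to -0.26. The Cp call was lost when any array was left out other than Trim28MommeD9/+ replicates 2 and 3 and Trim28+/+ replicates 1 and 4, with adjusted p-values up to 0.102 and differences from -0.20 to -0.14.

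Hp, the haemoglobin-binding haptoglobin, read 13.58, 13.74 and 13.92 on the Trim28MommeD9/+ arrays, inside the Trim28+/+ values of 13.41, 13.70 and 14.03. The difference was 0.07 (-0.09 to 0.23, adjusted p = 0.508), and its 3 probes gave 0.07, 0.09 and 0.11. Hpx, the haem-binding hemopexin, differed by 0.08 (-0.01 to 0.16), Lcn2, which binds bacterial siderophores, by 0.28 (adjusted p = 0.216), Cd14 by 0.14 (adjusted p = 0.307) and Fgl1, a fibrinogen-like hepatocyte protein, by -0.19 (adjusted p = 0.123). Lcn2 is also a neutrophil gene, and of the neutrophil markers 2 were tested with 0 passing, while Mpo, Elane, Camp, Ngp, Ltf and Csf3r did not pass the filter on dim probes. Cd14 was detected on 7 of 9 Trim28+/+ arrays and 7 of 7 Trim28MommeD9/+ arrays. For 11 of the 22 genes that did not pass, the 95% interval lay within 0.3 of 0 on the log2 scale, and for the other 11 it reached further.

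Stat3, the transcription factor through which interleukin-6 acts, passed in opposite directions by probe. The brightest probe (ILMN_2698046) read 8.05, 8.44 and 8.64 on the Trim28MommeD9/+ arrays and 8.53, 8.69 and 8.86 on the Trim28+/+ arrays, with 5 of 7 Trim28MommeD9/+ arrays below every Trim28+/+ array. Its difference was -0.30 (-0.48 to -0.13, adjusted p = 0.0153, or 0.122 with the presumptive pairs). A dimmer probe (ILMN_3096144) read 6.75, 6.91 and 7.01 against 6.11, 6.47 and 6.94, a difference of 0.39 that passed over all probes (adjusted p = 0.0121), and the remaining probe (ILMN_2589790) differed by 0.18 (adjusted p = 0.0603). Against Trim28+/+ replicate 1 alone the 3 probes differed by -0.13, -0.04 and 0.09. Its count as a lower gene rests on the brightest probe. Among the 1790 genes with several detected probes, 39 (2.18%) had probes that passed in both directions. Il6ra, the interleukin-6 receptor, differed by 0.34 (-0.16 to 0.84, adjusted p = 0.321).

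**Figure D3:**
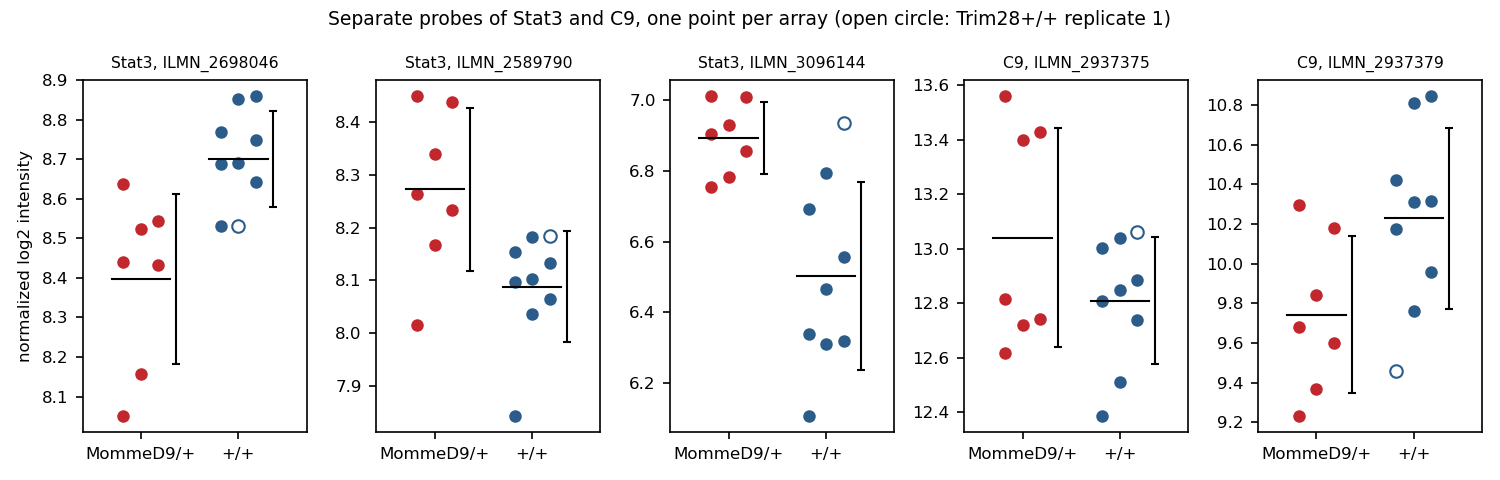
Normalized log2 intensity (y axis) of the 3 Stat3 probes and of the 2 detected C9 probes, one point per array by genotype, with the mean as a line and the SD as a bar. The first Stat3 probe is lower on the Trim28MommeD9/+ arrays by 0.30 and the dimmest of the 3 higher by 0.39, and the open circle marks Trim28+/+ replicate 1.

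The arrays also differed within a genotype. For 7 genes (C2, C6, C8b, C9, Saa1, Hp and Il6ra) the widest gap among the Trim28MommeD9/+ arrays put replicates 1, 2 and 5 above replicates 3, 4, 6 and 7, as for 6.08% of all genes tested. Mbl1, Apcs and Orm1 were parted at the same place in the opposite direction, as were 8.16% of all genes. C6 read 8.88 to 9.04 on the first 3 arrays and 7.31 to 8.04 on the other 4, C9 13.40 to 13.56 and 12.62 to 12.82, and Il6ra 6.80 to 6.99 and 5.65 to 5.95. Saa1 read 5.44 to 5.66 and 4.59 to 4.68, and the former were the Trim28MommeD9/+ arrays on which it was detected. It passed the filter on dim probes only through those arrays, so its place among the 7 genes is no separate result. On the Trim28+/+ side, replicates 6 and 9 lay below the widest gap for 4 genes (Hc, C6, C9 and Hpx), as for 2.42% of all genes tested. This is a description of the arrays after their values were seen, with no test, and arrays that lie together may share a mouse. The SD was larger in Trim28MommeD9/+ than in Trim28+/+ for 11 of the 31 genes (35.5%), beside 29.6% of all genes, and the median ratio of the SDs was 0.72 beside 0.76. The Trim28MommeD9/+ arrays all lie in the low-background set, whereas the Trim28+/+ arrays lie in both sets. The part of background in the Trim28+/+ SD therefore cannot be told apart from genotype.

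**Figure D4:**
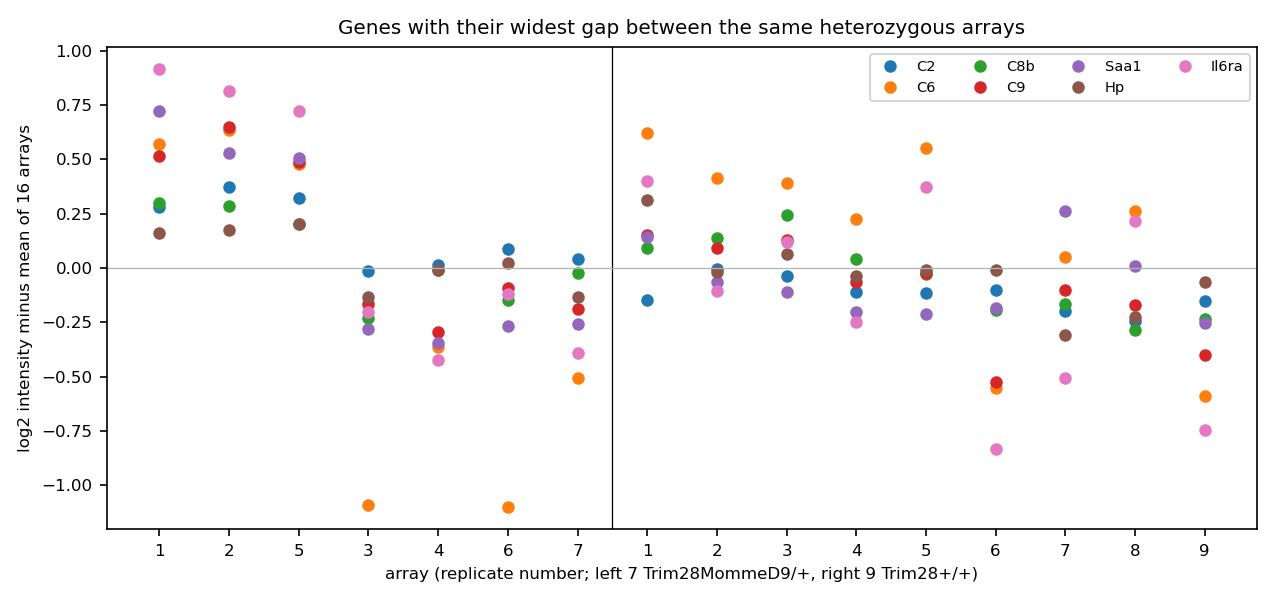
Log2 intensity minus the mean of the 16 arrays (y axis) for the 7 genes whose widest gap parts Trim28MommeD9/+ replicates 1, 2 and 5 from 3, 4, 6 and 7, by array (x axis, the 7 Trim28MommeD9/+ arrays left of the line, the 9 Trim28+/+ arrays right). On the left, all 7 genes are higher on the first 3 arrays than on the other 4, which is how they were chosen. Saa1 passed the filter on dim probes only through those first 3 arrays.

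Genes of the same pathways outside the chosen set were counted from 4 lists. Of 18 other complement genes tested, 6 were higher and 1 lower, beside 10.4% and 11.4% of all genes. The 3 with the smallest p were Cfhr2, a factor H-related gene (-1.11, adjusted p = 0.000992, and -0.14 against Trim28+/+ replicate 1 alone), Vsig4, a macrophage receptor for C3 fragments (0.44, adjusted p = 0.00213, and 0.26), and Fcna, a ficolin of the lectin pathway (0.51, adjusted p = 0.00242, and 0.35). Also higher were C1qa, C1qb and C1qc, the chains of C1q, which with Vsig4 are also among the Kupffer cell markers counted above, and Serping1, the C1 inhibitor. With the presumptive pairs 3 were higher (Vsig4, Fcna and C1qc) and 1 lower (Cfhr2), beside 2.41% and 4.26% of all genes. With scaling to the median of all probes 0 were higher and 6 lower, beside 0.479% and 34.6%. Vsig4 was higher on 7 of 7 Trim28MommeD9/+ arrays than on any Trim28+/+ array. Over all genes tested, the genotypes did not overlap for 2.40%. Cfhr2, at 5.88 on Trim28+/+ replicate 1 and 6.50 to 7.58 on the other Trim28+/+ arrays, had the same layout of arrays as Cfb.

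Of 17 other positive acute-phase genes, 4 were lower and 0 higher, beside 11.4% and 10.4% of all genes. The 3 with the smallest p were Serpina1a, an antitrypsin (-0.80, adjusted p = 0.00738), Fgg, a fibrinogen chain (-0.40, adjusted p = 0.00893), and Itih3, an inter-alpha-trypsin inhibitor chain (-0.26, adjusted p = 0.0185). The remaining one was Hamp, the iron hormone hepcidin (-0.66, adjusted p = 0.0300). Against Trim28+/+ replicate 1 alone these differences were 0.22, 0.03, 0.01 and 0.22. With the presumptive pairs all 4 calls were lost, with adjusted p-values of 0.0694, 0.103, 0.132 and 0.115. Of 14 negative acute-phase genes, whose levels fall in inflammation, 2 were lower and 0 higher, beside 11.4% and 10.4% of all genes. These were Alb (-1.21, adjusted p = 0.00163) and Rbp4, the retinol carrier (-1.61, adjusted p = 0.00358). Against Trim28+/+ replicate 1 alone, Alb and Rbp4 differed by 0.36 and 0.20. Both kept their calls with the presumptive pairs, beside 4.26% of all genes lower. Of 7 hepatocyte markers tested, 4 (Alb, Serpina1a, Cyp2e1 and Hnf4a) were lower as Cfb and C8a were, beside 11.4% of all genes. Of the 7, 0 were higher, beside 10.4%. Apoa1, Ttr and Cps1 differed by -0.06, -0.06 and 0.10 and did not pass. Alb and Hnf4a kept their calls with the presumptive pairs, beside 4.26% of all genes lower. Summed over the 7, linear intensity ran from 66121 to 73318 in Trim28MommeD9/+ livers and from 70536 to 81768 in Trim28+/+ livers. Trim28+/+ replicate 1 had the lowest sum of its group. Apoa1, Ttr, Cyp2e1 and Cps1 make up most of this sum, and of these only Cyp2e1 was called lower. The dimmer Alb, Hnf4a and Serpina1a add little to it. The part of the 7 markers in the results was not tested. Alb was read by a dim probe that was detected on 5 of 7 Trim28MommeD9/+ arrays. Some genes counted as not passing in these lists had a dimmer probe that passed as lower over all probes (limma). Among the negative acute-phase genes these were Ahsg (-0.53, adjusted p = 0.00239) and Serpinc1 (-1.22, adjusted p = 0.00123). Among the positive ones it was Itih4 (-0.41, adjusted p = 0.00177).

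Among 24 other genes of interleukin-6, interleukin-1 and NF-kB signalling, 3 were higher (Jak2, Pias3 and Tlr2) and 2 lower (Socs2 and Bcl3), with Irak1 set apart. Over all genes 10.4% were higher and 11.4% lower. Socs2, a suppressor of cytokine signalling, differed by -1.21 (adjusted p = 0.0193) and by -2.12 against Trim28+/+ replicate 1 alone. Tlr2, a receptor for bacterial lipoproteins, differed by 0.32 (adjusted p = 0.0238) and by 0.49 against that array. With the presumptive pairs, Socs2 kept its call and the other 4 lost theirs, beside 2.41% of all genes higher and 4.26% lower. Irak1, a kinase of the interleukin-1 receptor, was detected on 0 of 7 Trim28MommeD9/+ arrays and 5 of 9 Trim28+/+ arrays, so that it passed the filter on dim probes only through the Trim28+/+ arrays and is not counted as lower. It read 4.50 to 4.81 against 4.69 to 5.52, a fitted difference of -0.52, and -0.02 against Trim28+/+ replicate 1 alone. Socs3, a known target of Stat3, differed by -0.07 (adjusted p = 0.695). Il1rap and Traf6, counted as not passing, each had a dimmer probe that passed as lower over all probes (limma). These probes differed by -1.08 (adjusted p = 0.00131) and -0.59 (adjusted p = 0.00174). The brightest probes of Il1rap and Traf6 differed by -0.12 and -0.19, and their remaining probes did not pass either.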

How the data were processed

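The authors amplified and biotin-labelled total liver RNA for MouseRef-8 v2.0 arrays of Illumina. The authors deposited non-normalized intensity values per probe and array, with a detection p-value beside each that the authors' software gave against negative controls. A second deposited table holds intensity values from which a constant was subtracted on each array before scaling. The labels name GenomeStudio, and the study also names BeadStudio, both of a version not given in the sources used here. A difference score that the authors used was not computed, and limma was used in its place.

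The 25697 probes were corrected and normalized with neqc (offset 16) of limma 3.58.1 in R 4.3.3. Probes detected at p under 0.01 on 3 or more of 16 arrays were kept, and the probe with the highest mean stood for each symbol. Genotypes were compared with limma's moderated test with an intensity trend and Benjamini-Hochberg adjustment (threshold 0.05) over 7302 genes, and the model was tested on simulated data. Technical pairs were presumed from the best matching of arrays by correlation within a genotype (consensus correlation 0.527). Only pairs were formed, so a larger set of arrays from the same mouse could not be joined. Tables were handled with Python 3.11.15 and pandas 2.3.3. Symbols came from the platform annotation, 23962 of 23978 updated through Entrez identifiers of RefSeq, and 1719 probes had none. Coordinates and upstream windows are those of RefSeq (GRCm38.p6).

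The genes, the lists and the tests were chosen with earlier results of these data known. Named with full values were genes that passed the test, Stat3, Crp, Saa1, Saa2, Orm1 and Hp, and up to 3 genes with the smallest p of each other list; C6, C9, Il6ra and the array pattern were singled out after their values were seen. The number of arrays limits the precision.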

Additional observations from a re-analysis of the deposited data

Results flagged for a closer look

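Among the 31 genes tested, each group of arrays was searched for a highest or lowest array that stood apart from the others. Trim28+/+ replicate 1 stood apart for Mbl1, at 12.00 beside the next Trim28+/+ array at 11.78. For C8g, Trim28+/+ replicate 2 stood apart at 13.50, beside the next at 13.39. These were 2 of 62 groups of arrays, and chance alone gives about 1 in 20.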

How the results depend on the processing

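Main counts were 761 genes higher and 831 lower, of which 4 and 5 were among the 31 complement and acute-phase genes. Scaling to the median of all probes gave 35 and 2526 (0 and 12 of the 31), with C4b at -0.011 and Masp2 at -0.0567. The authors' scaled values gave 374 higher and 1076 lower, and no filter on dim probes gave 461 higher and 717 lower (2 higher and 3 lower of the 34 genes with a probe). With every probe tested, 7 of 40 probes were higher and 5 lower, beside 1069 and 1177 of all 9688 probes. Presumptive technical pairs gave 176 and 311 (1 and 1, C2 and Cfb). With the background sets as a block, 2 and 1 genes were called (0 and 0 of the 31), C8a turned to 0.13 and Cfb to 0.0551. That block compares the Trim28MommeD9/+ arrays with 1 Trim28+/+ array. Leaving out single arrays gave 501 to 981 genes higher and 666 to 974 lower (2 to 4 and 3 to 7 of the 31). The lowest count higher, 501, came without Trim28MommeD9/+ replicate 6. Cp, Lbp, Masp2 and Saa3 lost their calls without single arrays of both genotypes, and C2, C4b, C8a, Cfb and Stat3 did not. The cause of these changes was not tested.

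Arrays carry a number within their genotype. Those with the same number had correlations of their deviations between -0.394 and 0.479, and 2 of 7 numbers correlated best with their own, so the numbers did not pair the samples. The replicate block gave 163 genes higher and 371 lower, and 1 and 1 of the 31.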
